A study of Homo sapiens with 10 samples.

Results

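The genes described here encode the proteins of the cytosolic ribosome. They were found by name, as gene rows called RPL or RPS with a number (optionally followed by A, X or L), RPSA, or RPLP0 to RPLP2. The rule found 79 genes among the 13808 gene rows of a table of 14785 rows, and all 79 are annotated as protein-coding. Of these, 47 belong to the large subunit and 32 to the small subunit, and the set includes the paralogs RPL39L and RPS27L. FAU and RACK1 also give rise to ribosomal proteins but have other names, so they lie outside the rule and are given separately. The cells were H1, a human embryonic stem cell line with a wild-type genotype, grown on Matrigel in mTeSR1 medium. Each group received a short hairpin RNA (shRNA) carried by a virus made in 293T cells and was then selected with puromycin. The groups were shLUC (the control, directed at luciferase), shSMARCA4, shMAFK, shE2F6 and shKDM1A, with 2 biological replicate libraries each and 10 libraries in all. SMARCA4 is the ATPase of a chromatin remodelling complex, MAFK a small MAF transcription factor, E2F6 a repressor of the E2F family and KDM1A a histone demethylase.

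Ribosomal proteins join ribosomal RNA to form a small subunit, which reads the messenger RNA, and a large subunit, which joins amino acids. Cells make nearly all of these proteins in equal numbers, and their messenger RNAs are among the most abundant in growing cells, embryonic stem cells included. Many of these messenger RNAs start with a C followed by a run of C and T, the terminal oligopyrimidine (TOP) motif, through which the mTOR pathway and the protein LARP1 control their translation.

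Transcription start sites are shown because the TOP motif is the sequence feature these genes are best known for. RefSeq start windows (GRCh38.p14) were matched by symbol for 63 of the 79 genes. A start that opened with C and went on with at least 4 further bases that are each C or T was found in 42 of those 63 genes, which is 66.7%. Of the 10432 other genes with a window, 533 opened in this way, which is 5.1%. Below, the 15 bases before and the 15 bases from the start are printed, with the pyrimidine run in capitals where it met this definition. The start is that of 1 RefSeq transcript, and 51 of the 63 windows of this length lie wholly inside the gene as GENCODE 29 annotates it, among them 10 of the 12 shown (not RPS27 and RPL39). The genes shown are those that stood highest or lowest in shKDM1A replicate 1, some of those that differed most between shE2F6 or shSMARCA4 replicates, and those with the smallest adjusted p-values. RPL3, which differed most between the shE2F6 replicates (-1.83 on the log2 scale), is not printed, and its start did not meet the definition.
RPSA, chr3:39406705-39406734, plus strand: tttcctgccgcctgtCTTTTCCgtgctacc
RPS3, chr11:75399503-75399532, plus strand: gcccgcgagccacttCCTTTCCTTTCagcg
RPS10, chr6:34426055-34426084, minus strand: ccgcgcatgctccttCCTTTCCagccccgg
RPS27, chr1:153990747-153990776, plus strand: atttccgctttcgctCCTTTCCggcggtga
RPL29, chr3:51995881-51995910, minus strand: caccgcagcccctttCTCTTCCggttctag
RPL39, chrX:119791616-119791645, minus strand: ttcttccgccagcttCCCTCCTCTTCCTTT
RPLP0, chr12:120201097-120201126, minus strand: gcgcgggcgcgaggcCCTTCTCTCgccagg
RPL37A, chr2:216498829-216498858, plus strand: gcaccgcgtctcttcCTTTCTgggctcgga
RPL28, chr19:55385917-55385946, plus strand: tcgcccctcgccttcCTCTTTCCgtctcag
RPL13A, chr19:49487593-49487622, plus strand: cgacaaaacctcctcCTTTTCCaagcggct
RPL6, chr12:112411428-112411457, minus strand: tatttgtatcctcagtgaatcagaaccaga
RPS27L, chr15:63157463-63157492, minus strand: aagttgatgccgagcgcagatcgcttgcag
Genes far above and far below their usual level in shKDM1A replicate 1 (RPSA and RPS27) both carried the motif at the RefSeq start. RPL6 and RPS27L did not.

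The deposited values are whole numbers on a normalized scale, with the same median of 594 and the same maximum of 148866 in every library, so the sequencing depth is unknown and no counting error can be given. Above 15000 the scale is a ladder of 15 steps, each shared by 10 rows per library, and a gene that trades places with a neighbour moves by a whole step. Below 15000 values also recurred across genes and libraries (13159 and 13575, for example), so the ladder goes on there with smaller gaps than at the top. From the highest step to the next, from 148866 to 61943 or 61939, the difference is 1.27 on the log2 scale. In 22 of the 79 genes every library lay above 15000, in 47 at least 1 library did, and in 32 none did. The targeted genes stood at 12.7% (SMARCA4), 42.1% (KDM1A), 61.3% (E2F6) and 59.6% (MAFK) of the shLUC mean. KDM1A read 3290 in shKDM1A replicate 1 and 1879 in replicate 2, against 6344 and 5925 in shLUC. Its target was thus less reduced in shKDM1A replicate 1, the library that stands apart below, than in replicate 2. MAFK read 82 and 216 in the shMAFK libraries against 212 and 288 in shLUC, so the library labelled shMAFK replicate 2 did not stand below the control for its own target, and every direction given for shMAFK carries that limit. Of 18 pluripotency markers, 17 were in the table, and POU5F1 lay at 16615 or above in all libraries. In bulk RNA such as this, fewer cells that express a gene and less of its RNA per cell cannot be told apart.

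The 79 genes together held between 5.88% and 6.59% of the summed value of a library. Averaged over the 10 libraries and divided by the median transcript length, the highest level per kilobase was that of RPLP0 (89433), the scaffold of the stalk that recruits elongation factors. RPL13A (76425), RPS3A (61136), RPS2 (58610) and RPL3 (52215) followed on the same per-kilobase scale. The order of the first 4 depends on the highest step, since by the median of the 10 libraries RPS2 (62914) and RPS3A (61476) came before RPL13A (56411) and RPLP0 (55220). The lowest levels per kilobase were those of RPL39L (1316), RPS27L (1495) and RPS26 (3221). RPL39L is a paralog of RPL39, a small protein of the exit tunnel, whose own level was 14513 per kilobase. Before division by length, the means ran from 985.8 for RPL39L to 83915 for RPL13A. For the median gene the highest of the 10 values was 1.83 times the lowest. How reads were divided between these genes and their copies is not given in the sources used here. The annotation (GENCODE 29) names 1133 pseudogenes after 76 of the 79 genes, with RPL23A (91), RPSA (74), RPL21 (66) and RPL7 (61) at the top, and 36 of the genes overlap another coding gene. Values of single genes are uncertain to that extent.

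No ribosomal protein gene passed the test in any knockdown. Under limma, with p-values adjusted by Benjamini-Hochberg over all 14785 rows, 0 of 79 had an adjusted p under 0.05 against shLUC in shSMARCA4, where 4.18% of all rows did. The count was likewise 0 of 79 for shMAFK (0.0135% of rows), 0 for shE2F6 (0% of rows) and 0 for shKDM1A (0.0271% of rows). At an unadjusted p under 0.05, limma gave 7 genes in shSMARCA4 (16.3% of rows), 1 in shMAFK (8.77%), 11 in shE2F6 (5.09%) and 6 in shKDM1A (11.5%). A limma F-test for any difference among the 4 knockdown means called 0 of 79 genes, against 6.64% of rows, and 9 genes at an unadjusted p under 0.05 (23.6% of rows). The 4 comparisons share both shLUC libraries, so their values are not independent of each other. The plot of changes by knockdown gives each gene.

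**Figure D1:**
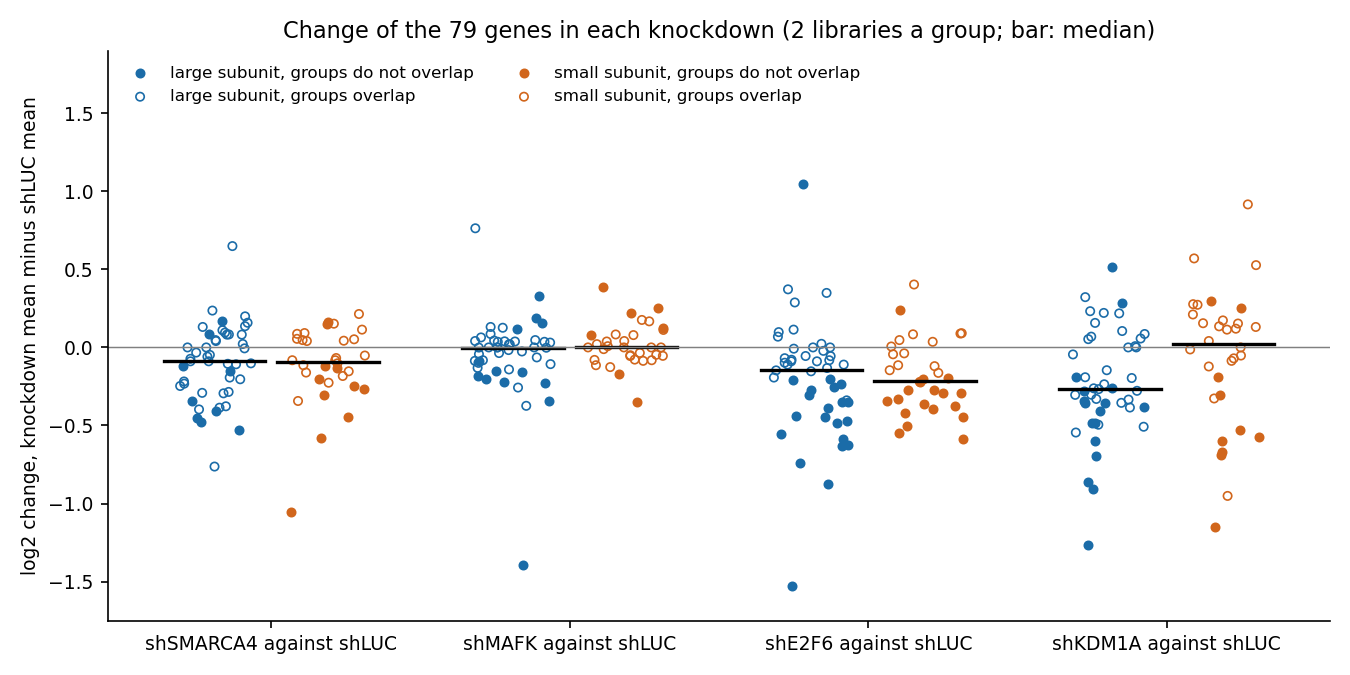
Log2 change of each of the 79 genes against shLUC (vertical axis) in the 4 knockdowns, with 2 libraries a group; each point is a gene, blue for the large and orange for the small subunit, filled where the knockdown and control libraries do not overlap, and bars are medians. In shE2F6 most points lie below 0 (61 of 79), with medians of -0.15 (large) and -0.21 (small).

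In the shE2F6 libraries most ribosomal protein genes lay below the control by a small amount. The group mean was lower for 61 of 79 genes, higher for 16 and equal for 2, with a median log2 difference of -0.19, while over all rows the median was -0.003 and 50.6% of rows were lower. Both shE2F6 libraries lay below both shLUC libraries for 37 genes, or 46.8%, where 20.4% of all rows did. They lay above for 2 genes, where 20.3% of rows did. RPLP0 was among the latter. Lower genes made up 24 of 32 in the small subunit and 37 of 47 in the large subunit. Among the 32 genes with no value above 15000, where the steps are finer, 30 were lower and 2 higher, with a median of -0.26. With shE2F6 replicate 2 left out, 63 genes were lower and 9 higher, with a median of -0.15. With all values above 15000 set to 15000, the median was -0.06, 46 genes were lower and 7 were higher. Both shE2F6 libraries stood below each of the other 8 libraries for 4 genes, 5.06%, where 2.98% of rows did, so for most of the 37 genes another knockdown library reached as low as one of them.

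The 5 genes furthest below the control in shE2F6 without overlap were all in the large subunit, with RPL13A at the front (its values follow with the top of the scale). RPL7, a protein of the large subunit with 61 named pseudogenes, read 19692 and 21308 in shE2F6 and 27326 and 51684 in shLUC, a log2 difference of -0.88 ± 0.31 (SE, limma adjusted p = 0.901). RPL34 read 8628 and 5300 against 10950 and 11635 (-0.74 ± 0.28, limma adjusted p = 0.938). Both groups stood apart for these genes, yet the adjusted p was far from the threshold. RPL36A read 7210 and 4646 against 9056 and 8852, and its log2 difference was -0.63 ± 0.23 (limma adjusted p = 0.927). RPL31 read 13575 and 9056 against 16615 and 17670 (-0.63 ± 0.27, limma adjusted p = 0.963). For RPL34, RPL36A and RPL31 the lower value was that of replicate 2. In the small subunit, RPS24, mutated in some families with Diamond-Blackfan anaemia, read 12828 and 11277 against 15759 and 19692 (-0.55 ± 0.19, limma adjusted p = 0.885). RPS23, which lies at the decoding centre, read 14274 and 10757 against 18607 and 16615 (-0.51 ± 0.19, limma adjusted p = 0.939).

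In shSMARCA4 the ribosomal protein genes stood closer to the control, with a paralog and a large subunit gene at the front. The group mean was lower for 49 genes (49% of rows) and higher for 28, with a median of -0.09, beside 0.007 over all rows. Groups stood apart with shSMARCA4 lower for 16 genes, or 20.3% (25.4% of rows), and higher for 4, or 5.06% (25.6% of rows). RPS27L, a paralog of RPS27 whose gene is a known target of p53, read 889 and 720 in shSMARCA4 and 1744 and 1591 in shLUC. The shSMARCA4 libraries were at 0.481 of the control, a log2 difference of -1.06 ± 0.32 (limma adjusted p = 0.114). RPL6 read 18610 and 17675 against 25026 and 27330, a log2 difference of -0.53 ± 0.14 (limma adjusted p = 0.0802), and both shSMARCA4 libraries were lower than the other 8, which ran from 19696 to 27330. These are the smallest adjusted p-values of the 79 genes in any knockdown. Both genes passed limma when only the 2 groups were fitted (adjusted p = 0.0287 for RPL6 and 0.0156 for RPS27L) and when both shKDM1A libraries were left out (0.0148 and 0.0375). With shSMARCA4 replicate 1 left out neither passed, and RPL13A did.

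Other genes that stood apart in shSMARCA4 had larger adjusted p-values. RPS27A, which is made as a fusion with ubiquitin, read 12832 and 9298 against 14279 and 18610 (-0.58 ± 0.28, limma adjusted p = 0.364). RPL26, which lies near the exit of the peptide tunnel, read 10071 and 7440 against 11277 and 12828 (-0.47 ± 0.19, limma adjusted p = 0.255). RPL23 read 12342 and 9505 against 14837 in both controls (-0.45 ± 0.24, limma adjusted p = 0.418). In all 3 genes replicate 2 was the lower library. The 4 genes that stood above the control were RPL36, RPS4X, RPS10 and RPL39L, by 0.08 to 0.17 on the log2 scale. RPS4X, the X-linked form of this small subunit protein, read 18607 and 17670 against 16615 and 15759.

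In shMAFK the ribosomal protein genes were centred on the control. The group mean was lower for 38 (50.8% of rows), higher for 33 and equal for 8, with a median of 0.0, and the groups stood apart for 11 genes lower (25.3% of rows) and 9 higher (23.8% of rows). RPS27A read 21314 in both libraries against 14279 and 18610 (0.39 ± 0.28, limma adjusted p = 0.819). RPL23 read 18610 in both against 14837 (0.33 ± 0.24, limma adjusted p = 0.823). Both genes thus lay above the control in shMAFK and below it in shSMARCA4. The F-test, which leaves the control out, gave them adjusted p = 0.147 and 0.165 in limma. RPS26, a protein near the messenger RNA exit, read 2936 and 2712 against 4036 and 3208 (-0.35 ± 0.27, limma adjusted p = 0.837). RPL7A read 16615 and 15759 against 21308 and 19692 (-0.34 ± 0.19, limma adjusted p = 0.705). RPS7, RPS23 and RPL36 also stood above the control, by 0.19 to 0.25, and RPL28 and RPL24 below it, by about 0.2 on the log2 scale.

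In shKDM1A the replicates disagreed, and group means rest on replicate 1. The group mean was lower for 47 genes (52% of rows) and higher for 29, with a median of -0.19 (-0.018 over all rows). The medians were -0.27 in the large subunit and 0.02 in the small subunit. Without shKDM1A replicate 1 the median was -0.04, with 46 genes lower and 24 higher. Without shKDM1A replicate 2 the group is 1 library, which is described below gene by gene. Groups stood apart for 23 genes lower, 29.1% (20.9% of rows), and 4 higher, 5.06% (17.9% of rows). RPS27L read 566 and 996 in shKDM1A, at 0.451 of the control (-1.15 ± 0.32, limma adjusted p = 0.295). RPL32 read 6249 and 14274 against 15759 and 14834 (-0.70 ± 0.31, limma adjusted p = 0.438), so its difference lay almost wholly in replicate 1. RPL37A, RPS29, RPL19 and RPS21 were the 4 genes that stood above the control, by 0.25 to 0.51. RPL37A read 18610 and 15764 against 12000 in both controls (0.51 ± 0.46, limma adjusted p = 0.634).

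The library shKDM1A replicate 1 differed from the rest gene by gene. Measured as the log2 difference from the median of the other 9 libraries, the 79 genes had an SD of 0.694 in this library and between 0.131 and 0.452 in the others. Its value lay outside the range of all other 9 libraries for 50 genes (22 above and 28 below), or 63.3%, where 51% of all rows did so in this library. In shKDM1A replicate 2 the count was 0 of 79, where 11.5% of all rows lay outside the range of the other libraries. A difference of at least 1 was seen in 14 genes, or 17.7%, where 10.7% of rows reached it. Of these, 11 were lower (5.84% of rows) and 3 higher (4.86% of rows). All rows of this library were spread widely too, with an SD of 0.748. The plot of differences by library shows this spread beside the others.

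**Figure D2:**
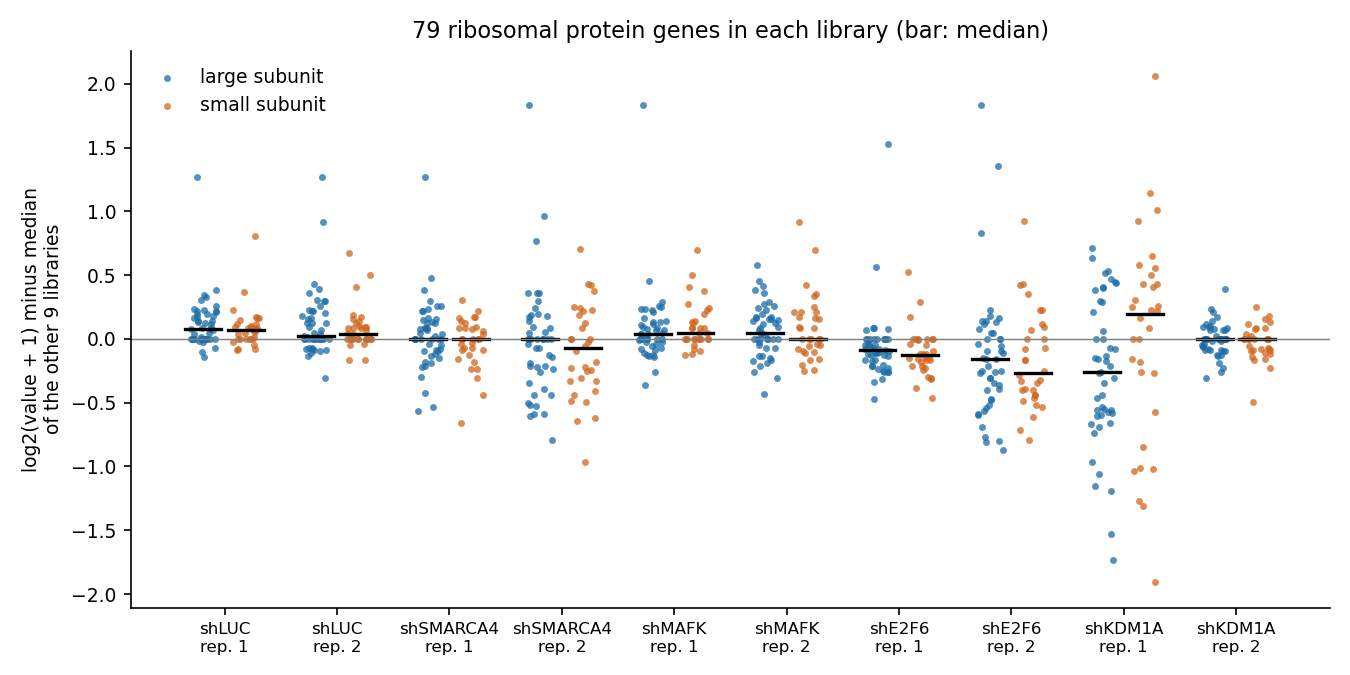
Log2 difference of each gene from the median of the other 9 libraries (vertical axis) in each of the 10 libraries, with large subunit genes in blue, small subunit genes in orange and medians as bars. Points spread most in shKDM1A replicate 1 (SD 0.694) and least in shKDM1A replicate 2 (SD 0.131).

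The lowest genes of shKDM1A replicate 1 came from both subunits. RPS27, a zinc-finger protein of the small subunit, read 2016 there and between 5300 and 9502 in the other 9 libraries, at 0.266 of their median (-1.91 on the log2 scale). RPL29 read 4748 and otherwise 13575 to 17670, at 0.301 of the median (-1.73). RPL39 read 2273 and otherwise 3604 to 7440 (-1.53). For these 3 genes the library lay well under every other. RPS27L read 566, under a range of 720 to 1879 (-1.31). RPL32, RPL36, RPS25 and RPS18 also lay at least 1 below the median of the other libraries.

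The highest genes of the same library were mostly in the small subunit. RPSA, which also serves as a laminin receptor at the cell surface, read 148866 in shKDM1A replicate 1 and 35710 or 41804 in the other 9, which is 4.17 times the median and a move from step 4 or 5 to step 1. RPS3, which lines the entry channel for messenger RNA, read 51684 against 19692 to 25021, 2.20 times the median (1.14 on the log2 scale). RPS10, a neighbour of RPS3 on the small subunit, read 27326 against 13159 to 14834, 2.01 times the median (1.01). In all 3 genes shKDM1A replicate 2 was within the range of the other libraries. RPS27A read 25026 against 9298 to 21314 (0.93), and RPL21 read 19692 against 8852 to 13575 (0.71). RPSA lay above 15000 in every library, whereas RPS10 and RPL21 did so only in this library.

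**Figure D3:**
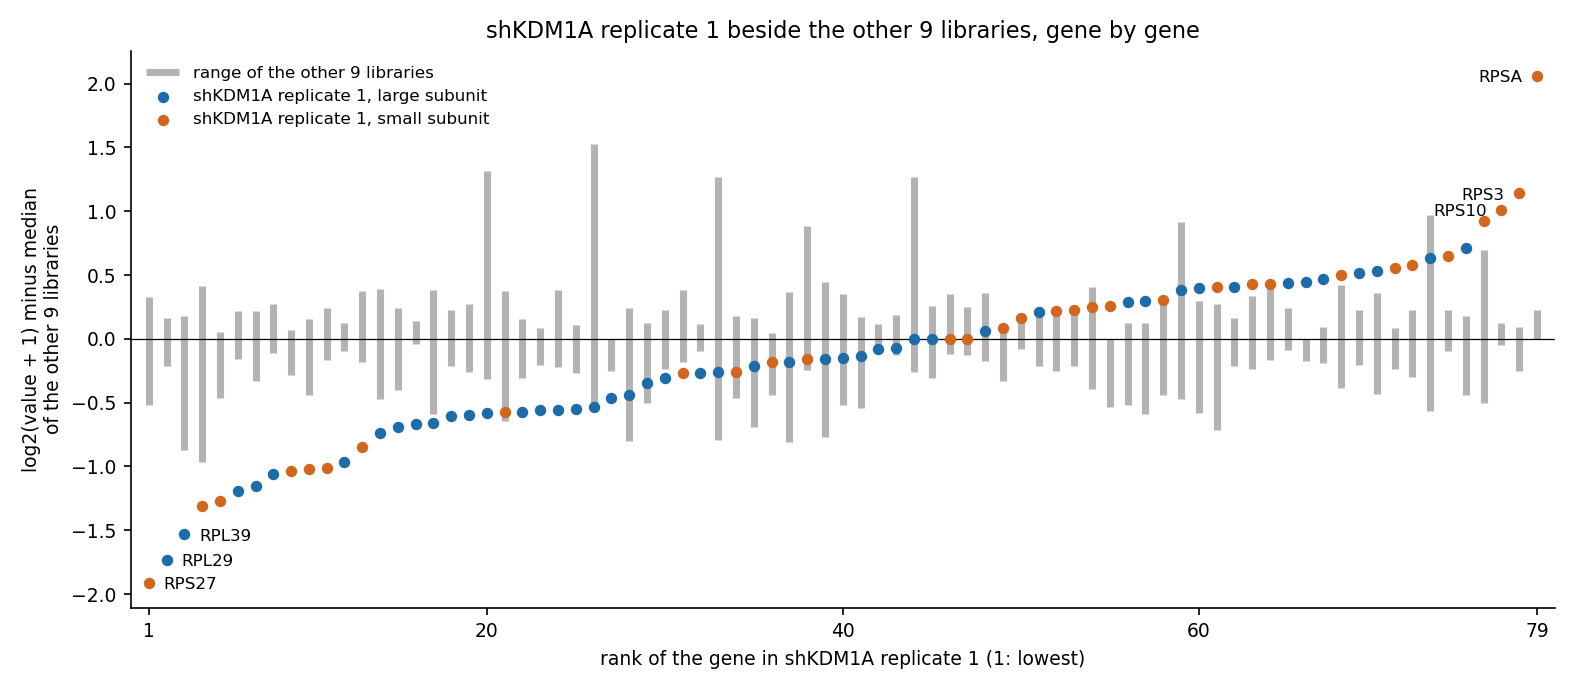
Log2 difference of shKDM1A replicate 1 from the median of the other 9 libraries (points, vertical axis) for the 79 genes in order, the 3 lowest and 3 highest named, with the range of the other 9 libraries as grey bars; blue is the large and orange the small subunit. RPS27 stands lowest at -1.91 and RPSA highest at 2.06, and 50 of the 79 points lie outside the grey bars.

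The subunits moved apart in that library. Large subunit genes held 3.37% of its summed value, against 3.63% to 4.24% in the other libraries, and small subunit genes held 3.13%, against 2.07% to 2.40%. Much of that excess was RPSA, without which small subunit genes held 2.48%, against 1.92% to 2.25%. The median difference from the other 9 libraries was -0.26 for the large subunit (31 lower, 14 higher) and 0.19 for the small subunit (12 lower, 18 higher). The split was most visible where the median of the other 9 libraries exceeded 15000. There, 12 of 13 small subunit genes were higher and 1 lower, with a median of 0.31, and 11 of 18 large subunit genes were lower and 5 higher, with a median of -0.24. At or below 15000, the small subunit had 11 lower and 6 higher of 19 (median -0.18), and the large subunit 20 lower and 9 higher of 29 (median -0.27). So the excess of higher small subunit genes was among genes whose median lay above 15000, and at or below 15000 both subunits leaned lower. With 1 library there is no test of this difference.

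Other values moved in the same library. POU5F1, a defining pluripotency factor, read 148866 there and 16615 to 51684 elsewhere, and the 17 pluripotency markers summed to 294619 against 169533 to 221636 in the other libraries. Without POU5F1 the sum was 145753, within the 144044 to 185926 of the others. By difference from the median of the other 9 libraries, 9 of the 17 markers were lower and 6 higher, with a median of -0.06. A difference of at least 1 was reached by 3 markers upward and by 1 downward (PRDM14, at -1.28). NANOG lay at -0.63. The 4 fibroblast or 293T markers (COL1A1, COL1A2, VIM and POSTN) summed to 25161 against 4018 to 12261. The difference lay in COL1A1 (8374) and COL1A2 (13159), while VIM at 3394 was within the range of the other libraries, 876 to 3873. Of the 4 ectoderm markers in the table, 1 differed by at least 1 upward in this library and 1 downward, with a median of -0.38. Of the 3 mesoderm markers in the table, 0 differed by as much, with a median of 0.32. The only endoderm marker in the table read 1 in this library, within the 0 to 792 of the others. The only trophoblast marker read 360, the highest of the 10 libraries, against 30 to 340 in the others. The part of these differences in the ribosomal protein values was not tested.

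At the top of the value scale a few genes took turns. RPL13A, a large subunit protein often used as a reference gene in quantitative PCR, read 148866 in both shLUC libraries and in shSMARCA4 replicate 1, and either 51684 or 61939 in the other 7 libraries. Its log2 difference was -1.40 ± 0.37 in shMAFK (limma adjusted p = 0.253), -1.53 ± 0.37 in shE2F6 (0.641), -1.27 ± 0.37 in shKDM1A (0.326) and -0.76 ± 0.37 in shSMARCA4 (0.363). Most of each difference is the gap of 1.27 below the highest step, and a move of 1 step is enough to give it. When only the 2 groups were fitted, RPL13A passed limma in shMAFK (adjusted p = 0.00583) and in shE2F6 (0.00132). RPLP0 read 148866 in shSMARCA4 replicate 2, shMAFK replicate 1 and shE2F6 replicate 2, and 35710 to 61939 elsewhere. Its log2 difference in shE2F6 was 1.05 ± 0.72 (limma adjusted p = 1). RPL3, which shapes the site where peptide bonds form, read 148866 only in shE2F6 replicate 1 and 35710 in shSMARCA4 replicate 2. In each library at most 1 ribosomal protein gene stood on the highest step, and in shKDM1A replicate 2 and the library labelled shMAFK replicate 2 none did.

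**Figure D4:**
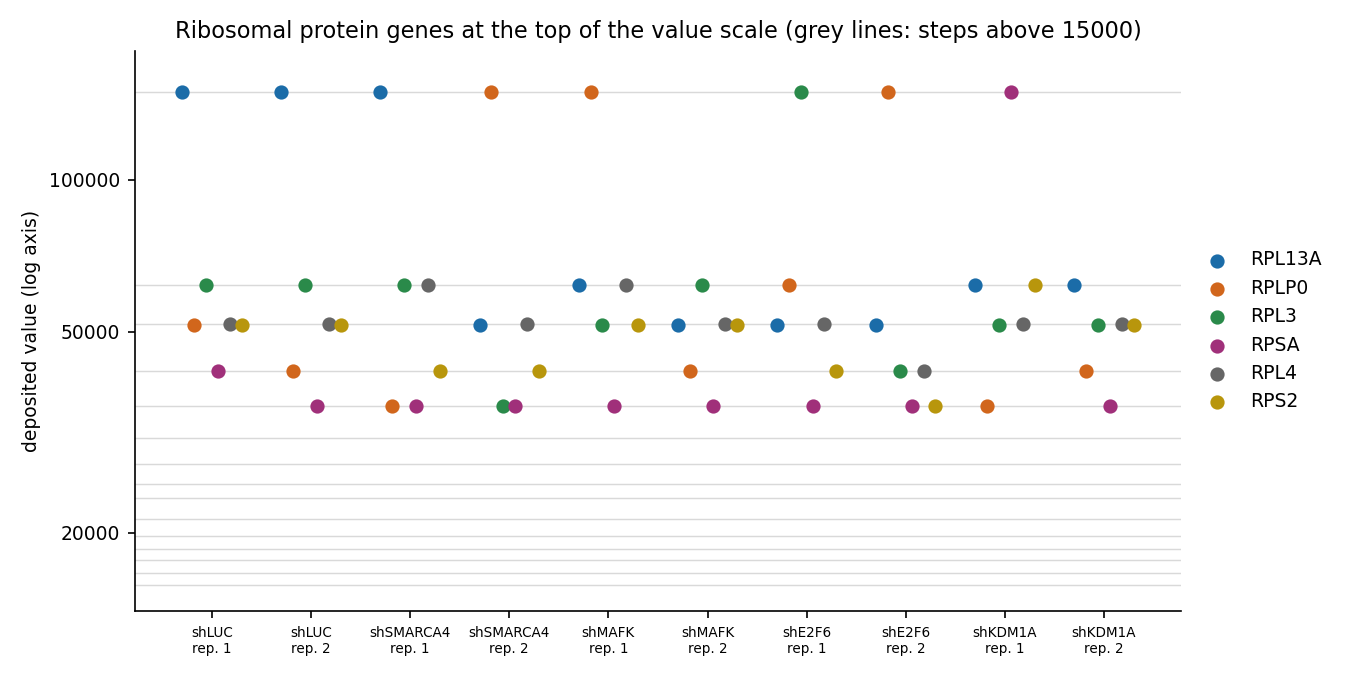
Deposited values (log axis) of 6 ribosomal protein genes in each library, with the steps of the scale as grey lines. The highest step, 148866, is held by RPL13A in 3 libraries, RPLP0 in 3, RPL3 in 1 and RPSA in 1, and by none of the 6 genes in shKDM1A replicate 2 or the library labelled shMAFK replicate 2.

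No gene of the stalk or of the 5S ribonucleoprotein passed the test in any knockdown. RPLP1 and RPLP2, the acidic proteins that bind RPLP0, had log2 differences between -0.08 and 0.22 in the 4 knockdowns. RPLP1 read 15759 and 16615 in shLUC and 14834 to 21308 over the knockdown libraries. RPL5 and RPL11, which with 5S ribosomal RNA can bind MDM2 and hold p53 levels up when ribosome assembly is disturbed, had their lowest values in different libraries. RPL5 read 35710 and 27326 in shLUC and 18607 to 30768 in the knockdowns, with the lowest value in shKDM1A replicate 1 and differences of -0.19 to -0.39. RPL11 read 14274 and 13575 in shLUC and 9502 to 16615 in the knockdowns, lowest in shSMARCA4 replicate 2, with differences of -0.29 to 0.07. The p53 target CDKN1A read 235 and 148 in shLUC, 64 and 127 in shSMARCA4 and 360 and 1170 in shMAFK, and did not pass limma in any knockdown (adjusted p = 0.368 in shSMARCA4 and 0.301 in shMAFK). MDM2 stood above both controls in shMAFK (1662 and 2331 against 1446 and 1461), in shE2F6 (1596 and 2104) and in shKDM1A (1468 and 1586). Of all rows, 23.8%, 20.3% and 17.9% stood apart in this way, in the same order. In shSMARCA4 it overlapped the control (1173 and 1522). It did not pass limma in any knockdown (adjusted p = 0.646 in shMAFK and 0.906 in shKDM1A).

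Among genes known from disease or regulation, RPS6, RPS19 and RPL38 lay close to the control, and RPL22 and RPL39L lay lower in some knockdowns without passing the test. RPS6, the target of S6 kinases, read 35710 in both shLUC libraries and 30768 to 41804 elsewhere, with differences of 0.0 to 0.11. RPS19, the gene most often mutated in Diamond-Blackfan anaemia, had differences of -0.20 to 0.17. RPL38, needed for translation of certain Hox messenger RNAs in mouse embryos, had differences of -0.02 to 0.10. RPL22 read 7097 and 8086 in shLUC and 6343 and 4704 in shE2F6 (-0.47 ± 0.25, limma adjusted p = 0.987). RPL39L read 1027 and 1036 in shLUC, 926 and 861 in shE2F6 and 708 and 1022 in shKDM1A, where the difference was -0.28 ± 0.18 (limma adjusted p = 0.542). Standard errors of 0.16 to 0.25 for these 5 genes leave room for differences of that size in either direction.

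Replicates agreed closely in the control and less in 3 knockdowns. The typical SD between the 2 replicates over the 79 genes was 0.117 in shLUC and 0.195 in shMAFK on the log2 scale, under the values over all rows (0.275 and 0.264). It was 0.328 in shE2F6, 0.349 in shSMARCA4 and 0.487 in shKDM1A, beside 0.308, 0.335 and 0.53 over all rows. In shE2F6 and shSMARCA4 the same genes differed between replicates. RPL28 read 8086 and 25021 in the shE2F6 replicates, 9056 and 16615 in the shSMARCA4 replicates, and 6746 to 11997 in the other 6 libraries. RPL37A, a zinc-finger protein, read 10074 and 21314 in shE2F6, 8088 and 23459 in shSMARCA4, and 10535 to 18610 in the others. In both genes replicate 2 was the higher one in both knockdowns. RPL39 went the other way, with 6012 and 3604 in shE2F6 and 7210 and 4572 in shSMARCA4.

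Across the 79 genes the difference of replicate 2 from replicate 1 in shE2F6 followed that in shSMARCA4, groups that share no library. Pearson's r was 0.772 and Spearman's rho 0.791 over the 79 genes. The sign was the same for 57 genes and opposite for 10, and 12 had no difference in at least 1 group. Of the 10 pairs of groups this was the highest r over the 79 genes. The shMAFK replicate difference ran the other way, with r -0.492 against shE2F6 and -0.505 against shSMARCA4, and the other 7 pairs lay between -0.302 and 0.262. Among the 32 genes with no value above 15000, r was 0.88. Over all 14785 rows r was 0.337 and rho 0.521. Genes are not independent replicates, so these are descriptions with no p. The replicate difference was correlated with the GC content of the transcripts, with rho 0.42 in shE2F6 and 0.39 in shSMARCA4 over the 79 genes, whereas over 13084 genes rho was 0.01 and 0.10. In shKDM1A the replicate difference had a rho of about 0.0 with GC content and 0.15 with transcript length. It was also correlated with the number of named pseudogenes, with rho -0.29 in shE2F6 and -0.30 in shSMARCA4. The part of either feature in the replicate differences was not tested. Translation factors outside the set also differed in these replicates. EEF2, the factor that moves the ribosome along, read 61939 in replicate 2 of shE2F6 and of shSMARCA4 and 148866 in the other 8 libraries. EEF1B2 read 4526 and 4906 in those libraries and otherwise 4309 to 8086, with its lowest value in shKDM1A replicate 1.

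**Figure D5:**
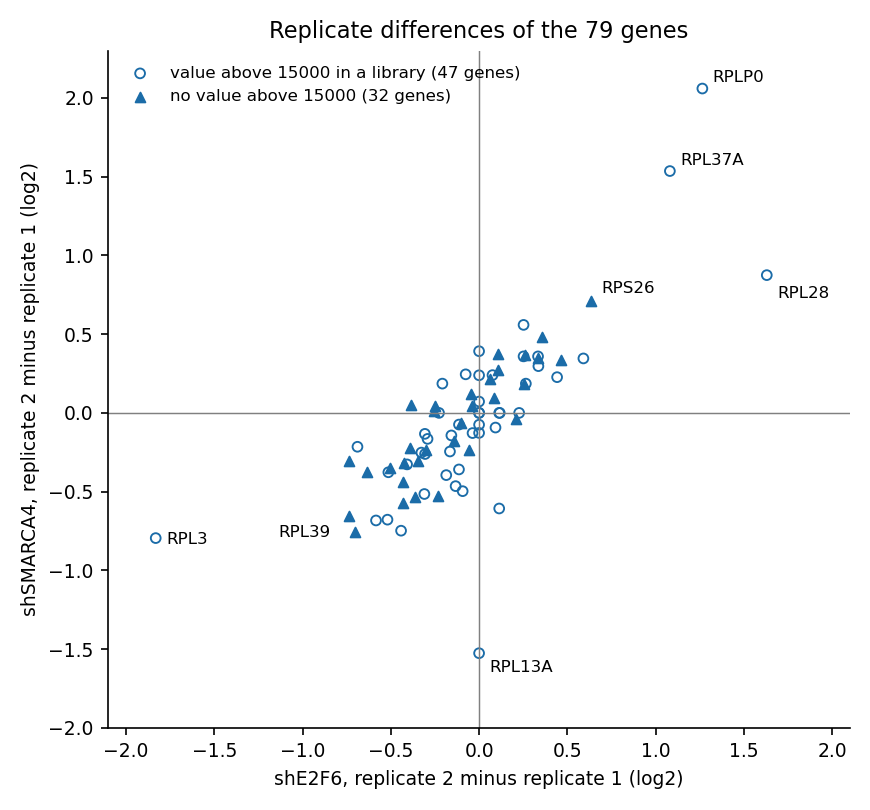
Replicate 2 minus replicate 1 on the log2 scale in shE2F6 (horizontal axis) and shSMARCA4 (vertical axis) for the 79 genes, with filled triangles for the 32 genes with no value above 15000. Points run from lower left to upper right (r 0.772), with RPL13A and RPL3 off the trend.

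Genes with and without a TOP-like start had similar medians in the knockdowns, a difference that was not tested. The 42 genes with a TOP-like start had median log2 differences of -0.06 (shSMARCA4), 0.0 (shMAFK), -0.15 (shE2F6) and -0.05 (shKDM1A). The 21 genes with another start had -0.12, 0.0, -0.15 and -0.07 in the same order. The 16 genes with no window stood lower in shKDM1A (median -0.29) and in shE2F6 (-0.21), so the 63 genes with a window do not stand for the whole set, whose median was -0.19 in both. In shKDM1A replicate 1 the SD of the difference from the other 9 libraries was 0.779 in the 42 genes with a TOP-like start and 0.581 in the 21 with another start. In windows of 300 bases, from 250 before to 50 after the start, a core of the E2F family (GCGGGAA on either strand) was found in 6 of 63 genes, or 9.5%, and in 10.4% of the 10432 other windows. The 6 genes had a median difference of -0.16 in shE2F6 and the 57 others -0.15. A MAF core (TGCTGAC) was found in 2 of 63 windows, 3.2%, the same share as in other genes. An ETS core (CCGGAAG) was found in 34.9% against 18.9%, and a YY1 core (AAGATGG) in 12.7% against 7.4%. These are letter matches only. A further feature of the set is its load of small nucleolar RNA genes, which guide the modification of ribosomal RNA: 28 of the 79 genes (35.4%) contain at least 1, 60 in all, against 195 of 13031 other coding genes (1.5%). The median transcript was 683 bases long, against 1918 for other coding genes, and 12 of the 79 genes lie on chromosome 19.

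Among other genes of translation and ribosome assembly, limma called 0 genes in each list and each knockdown. Of the ribosomal proteins outside the name rule, FAU, which gives a small subunit protein, read 4852 and 4958 in shLUC and 8374 in shKDM1A replicate 1, and RACK1 read 16615 to 23453 in all libraries. The 78 mitochondrial ribosomal protein genes had medians of -0.16 for shSMARCA4 (64 lower), -0.09 for shMAFK (59 lower), -0.09 for shE2F6 (50 lower) and -0.18 for shKDM1A (55 lower). For cytosolic genes the counts of lower genes in the same order were 49, 38, 61 and 47 of 79. Of 70 ribosome assembly factors, 68 were in the table, with medians of -0.11 in shSMARCA4 and 0.02 in shE2F6. Of 14 regulators of TOP messenger RNAs, all in the table, 12 stood higher in shE2F6 (median 0.16). The 11 elongation factors had a median of -0.07 in shE2F6 (8 lower), and the 37 initiation factors -0.06 (20 lower). Of 22 names listed for RNA polymerase I and its factors, 19 were in the table, with medians between 0.001 and 0.05 in the 4 knockdowns. In shKDM1A replicate 1 the assembly factor UTP18 read 11638 and otherwise 2022 to 3110, and the TOP-bearing gene TPT1 read 14834 and otherwise 23453 to 51684.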

How the data were processed

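RNA from 10 libraries of H1 cells was measured by sequencing with an NEB Next Ultra kit, per the labels' protocols. STAR, STARsolo and the build hg38 are named in the submitters' processing notes, with no role or version. The annotation, the counting and the normalization are not given in the sources used here. The values deposited by the authors are treated as a score, whole numbers read as normalized tag counts. They are not raw counts, and equal ranks hold equal values across libraries. A second deposited file, with group means, was not used. All value columns were mapped to samples (0 were left over). The design text calls the replicates biological duplicates, and groups were taken from the titles.

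Values were taken as log2(value + 1), a scale that understates changes of low genes, for the 14785 rows with a mean of at least 10 (all rows). The package limma (version 3.58.1, under R 4.3.3), with trended eBayes and two-sided tests, was fitted over all 10 libraries with 5 group means and 5 residual degrees of freedom, with p-values adjusted by Benjamini-Hochberg over the whole table at a threshold of 0.05. The pipeline was tested on simulated data. Errors are limma's standard errors. Groups are said to stand apart where the 2 values of one lie wholly above or below the 2 of the other. Single libraries were compared with the median of the other 9. Transcript length, GC content, pseudogenes, small nucleolar RNAs and overlaps come from GENCODE 29 (GRCh38), and start windows from RefSeq (GRCh38.p14). In 60 of the 63 windows the start is that of RefSeq's gene record.

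The genes and lists were chosen with earlier results of these data known. The genes named are those with the 5 largest non-overlapping rises and falls in each knockdown, the 5 highest and lowest in shKDM1A replicate 1, the extremes of level, the paralogs, and a fixed set of proteins with known roles (RPL5, RPL11, RPSA, RPLP0, RPLP1, RPLP2, RPS4X, RPS6, RPS19, RPL22 and RPL38). RPL3, RPS24, the genes near the extremes of level, the shE2F6 values of RPS23, the replicate differences of RPL28, RPL37A and RPL39, the translation factors, CDKN1A, MDM2 and UTP18 were picked after their values were seen. A few genes that the rule would name are not reported here. The alternatives were another pseudocount (10), another minimum mean (100) or none, values capped at 15000, normal scores of ranks, rescaled medians, no trend, only the groups compared, group weights, a replicate block, and leaving out libraries.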

Additional observations from a re-analysis of the deposited data

How the results depend on the processing

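Under every alternative run the median change of the 79 genes kept its lower direction in shE2F6 and shKDM1A; in shSMARCA4 it was lower except with values above 15000 set to 15000. That cap gave medians of 0.0 in shSMARCA4, -0.0565 in shE2F6 and -0.0169 in shKDM1A, and 0.0 for shKDM1A replicate 1 against the other 9 libraries. It makes many values equal, and it gave no value for a gene above 15000 in all libraries. Leaving out 1 library at a time gave medians of -0.0932 to -0.0382 (shSMARCA4), -0.0013 to 0.0 (shMAFK), -0.2532 to -0.1514 (shE2F6) and -0.2097 to -0.0409 (shKDM1A, lowest in size without replicate 1). The counts of genes called over the same leave-outs were 0 to 2 in shSMARCA4, 0 to 1 in shMAFK, 0 to 1 in shE2F6, 0 to 32 in shKDM1A and 0 to 38 in the F-test, the last pair both without shKDM1A replicate 2. Without shKDM1A replicate 2, that group is replicate 1 alone and has no spread of its own. The fit then takes its spread from the other groups. Their typical SD between replicates was 0.117 to 0.349 over the 79 genes, against 0.487 in shKDM1A. Over all rows, calls in shSMARCA4 rose from 618 to 1159 in the same fit. The highest counts in shKDM1A and the F-test thus do not set the 79 genes apart. Leaving out 1 library each gave RPL6 and RPS27L in shSMARCA4 (without either shKDM1A library), and RPL13A in shSMARCA4 (without its replicate 1) and in the other knockdowns (without either shSMARCA4 library).

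With only the 2 groups compared, the counts were 2 in shSMARCA4 (RPL6 and RPS27L), 1 in shMAFK and 1 in shE2F6 (RPL13A in each). Without both shKDM1A libraries they were 2 in shSMARCA4 and 6 in the F-test, and with group weights 2 in shSMARCA4, 1 in shMAFK and 5 in the F-test. Over all rows, calls in shSMARCA4 rose as well, from 618 in the main fit to 917, 1162 and 1306 in these settings, in the same order. The numbers in the titles do not establish pairs. Over all rows the replicate differences of 2 groups had r from -0.05 to 0.337, above 0.1 in 2 of 10 pairs of groups. Spearman's rho ran higher, from -0.059 (shKDM1A with shLUC) to 0.521 (shE2F6 with shSMARCA4), with 0.25 for shLUC with shMAFK. The replicate block gave 1 gene in the F-test (RPS23) and 0 in each knockdown.

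Chosen after seeing the data, leaving out replicate 2 of shE2F6 and of shSMARCA4 gave 1 in shMAFK and 2 in the F-test (RPL3 and RPL13A). Leaving out shKDM1A replicate 1 as well gave 4 in shSMARCA4 (RPL6, RPS3A and RPS2 lower, RPL37A higher), 1 in shMAFK, 2 in shE2F6 and 6 in the F-test, and a median of -0.0409 in shKDM1A. Over the 32 genes with no value above 15000 the median was -0.3032 in shKDM1A and -0.3853 for shKDM1A replicate 1. Against shKDM1A replicate 2 alone, the latter library's median was -0.0484 over all 79 genes. The cause of these shifts was not tested. Groups left with 1 library in these fits have no spread of their own, and the counts of genes called there carry that limit. For the single genes followed, no alternative turned a direction, and 26 brought a p under the threshold. Depth is unknown, so low values cannot be given a counting limit.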
